A study of Mus musculus with 14 samples.

Results

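The 10 genes described here form the core of the circadian clock and its closest outputs: Arntl, Clock, Per1, Per2, Per3, Cry1, Nr1d1, Nr1d2, Dbp and Tef. They were found by matching the Ensembl IDs of the count table to these symbols in GENCODE vM21, which gave 10 genes of the 54524 listed, and all 10 passed the filter on low counts. RNA was sequenced from liver sinusoidal endothelial cells (LSECs), the fenestrated cells that line the liver's smallest vessels, sorted as CD32+, F4/80-, UV- and PI- from male Balb/c mice aged 10 to 12 weeks by the labels. The groups were 4 untreated healthy mice, and mice killed 1 day (n = 2), 3 days (n = 4) or 7 days (n = 4) after 1 intraperitoneal injection of 0.5 µl CCl4 per g in mineral oil. CCl4 is a solvent that hepatocytes turn into a toxic radical. The healthy mice had no injection of mineral oil alone, so the oil, the handling and the CCl4 cannot be told apart.

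The clock is a feedback loop that most cells run for themselves. Arntl (BMAL1) and Clock encode the activator pair, which binds E-boxes and drives the Per, Cry, Nr1d1, Nr1d2, Dbp and Tef genes. PER and CRY proteins block the activator pair. NR1D1 and NR1D2 (REV-ERB alpha and beta) repress Arntl through ROR elements, where RORA activates it. DBP, TEF and HLF activate genes through D-boxes, which NFIL3 also binds, as a repressor. In mouse liver the transcripts peak one after another through the day: Arntl around the end of the night, Nr1d1 around the middle of the light phase, Dbp, Tef and Per3 soon after, Per1 and Per2 around dusk, and Cry1 later in the night. The levels of these genes therefore change with the hour at which an animal is killed. The labels and methods give no hour of harvest. A difference in hour between the groups cannot be told apart from the day after CCl4 in what follows.

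The binding motifs of the loop were looked for in promoter windows of 300 bases, from 250 bases before to 50 bases after each start site, taken from RefSeq on GRCm38.p6. Of the 10 genes, 9 had 1 or more windows, 14 windows in all, and Per2 had none in the table. The stretches below are shown because their genes passed the test in at least 1 comparison and their windows hold a match, marked in capitals, 5′ to 3′ on the gene's strand. Arntl holds an ROR element (chr7:113207530-113207559, plus strand), just after 1 of its start sites. Per3 holds a pair of D-boxes upstream of its start site (chr4:151044852-151044881 and chr4:151044805-151044834, minus strand). Tef holds an E-box upstream of each of its start sites (chr15:81802534-81802563 and chr15:81811264-81811293, plus strand).
Arntl: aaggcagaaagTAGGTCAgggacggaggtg
Per3 distal: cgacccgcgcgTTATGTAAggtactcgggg
Per3 proximal: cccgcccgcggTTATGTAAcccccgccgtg
Tef first: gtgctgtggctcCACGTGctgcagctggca
Tef second: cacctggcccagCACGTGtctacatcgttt
On either strand, the E-box CACGTG was found in 7.15% of 32851 windows of all genes, the ROR element TAGGTCA or TGGGTCA in 6.45%, and the D-box TTATGTAA in 0.938%. Per1 and Cry1 also held an E-box. The windows of Dbp, Nr1d1, Nr1d2 and Clock held none of these letters. Sites outside the windows, or with other letters, were not looked for, so these genes may still hold such elements. A match describes the sequence and does not show that a factor bound there in these cells.

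The libraries held between 46401496 and 103912264 counted reads, and the lowest count of any of the 10 genes in any sample was 245 (Per2). The libraries were amplified without molecular identifiers, so reads do not give the number of molecules, and counting error was not compared with the spread between mice. Expression is given as CPM, a gene's count scaled to library sizes that were made comparable with the TMM method, and values are listed in the order of the replicate numbers. Fold changes are on the log2 scale with their standard error (SE), from edgeR's quasi-likelihood test over all 14 samples, and a gene was called changed at a Benjamini-Hochberg adjusted p under 0.05 over 26626 genes. All 10 LSEC markers examined were detected in every sample, with summed levels of 16313 to 19678 CPM in healthy LSECs and 9796 to 15178 after CCl4. Single LSEC markers went both ways: edgeR called 2 higher and 1 lower at day 1, 1 higher and 1 lower at day 3, and 0 at day 7. Markers of other liver cells were also counted, at levels that differed between libraries. The summed level of 8 hepatocyte markers was 160.3, 214 and 318 CPM in healthy replicates 2, 1 and 3, but 6866 CPM in healthy replicate 4, and 3042 and 5749 CPM in day 7 replicates 1 and 2. It was 23.7 and 113 CPM at day 1, where Tat was at 0 in 1 sample, and 748 to 2675 CPM at day 3, and edgeR called 0 of the 8 at any day. At day 1 all 8 had an unadjusted p under 0.05 and DESeq2 called all 8 while limma voom called 0, and at day 3 and day 7 0 had such a p, with 0 called by DESeq2 and 1 and 5 by limma voom. The summed level of 8 monocyte and neutrophil markers was 508 to 1371 CPM in healthy samples, with 4, 3 and 1 of the 8 called higher at the 3 days. It was 8346 and 4302 CPM at day 1, 12428 and 7686 CPM in day 3 replicates 1 and 2 against 1451 and 1354 CPM in replicates 3 and 4, and 4142 to 9579.6 CPM at day 7. Day 3 replicates 1 and 2 also had more genes detected (34678 and 34768) than the other 12 libraries (22986 to 30735). All 8 stellate cell markers were called higher at day 3 and day 7, from 138 to 256 CPM in sum in healthy samples to 664 to 1999 and 374 to 5732 CPM, and were 119 and 100.1 CPM at day 1. Cholangiocyte markers (4) went in sum from 77.5 to 191 CPM in healthy samples to 593 to 5246 CPM at day 7, with 1 called. Kupffer cell markers (6) summed to 125 to 1039.7 CPM and lymphocyte markers (4) to 18.7 to 161 CPM over all 14 samples.

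In healthy LSECs all 10 genes were expressed. Per kilobase of exon, Nr1d1 was the most abundant (20.5 ± 5.79 CPM per kb, SD, n = 4) and its samples lay above those of every other clock gene. Dbp followed (7.55 ± 2.86), then Arntl (5.84 ± 0.823), Nr1d2 (5.55 ± 0.733), Clock (4.86 ± 0.592), Cry1 (4.76 ± 1.25), Tef (3.17 ± 1.23) and Per1 (3.07 ± 0.542 CPM per kb). From Dbp to Per1, each gene's range overlapped that of its neighbour in this order. Per3 (1.00 ± 0.632) and Per2 (0.926 ± 0.584 CPM per kb) were the lowest, overlapped each other, and lay below Per1 in all samples.

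At day 1 both REV-ERB genes fell, while the activator pair stayed near its healthy level. Nr1d1 fell by 3.48 on the log2 scale and Nr1d2 fell by 1.74, and these were the 2 called of the 10 clock genes, both lower. Across all tested genes 4.06% were called in this comparison. Cry1 and Per1, which encode repressors of the activator pair, were higher than in every healthy sample without passing the test.

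Nr1d1 stood at 50.4, 55.5, 89.5 and 57.0 CPM in the healthy samples and at 6.69 and 4.62 CPM at day 1. The groups did not overlap, and the level was 11.2-fold lower at day 1 (log2 fold change -3.48, SE 0.53, edgeR adjusted p = 0.00242). At day 3 it was 17.3, 19.0, 35.6 and 61.9 CPM, spread from below the healthy range to within it, and the test was not passed (-0.92, SE 0.36, edgeR adjusted p = 0.149). The 2 lower samples of day 3 are replicates 1 and 2, those with the more monocyte and neutrophil RNA. At day 7 it was 62.6, 40.6, 54.0 and 63.7 CPM, which overlapped the healthy samples (edgeR adjusted p = 0.803). The summed monocyte and neutrophil markers were above the healthy range at day 1 and at day 7, and their part in the level of Nr1d1 was not tested.

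Nr1d2 also fell at day 1, from a lower start, but differed from Nr1d1 at the later days. It measured 33.8, 27.5, 25.8 and 33.0 CPM in healthy LSECs and 10.7 and 7.23 CPM at day 1, again without overlap (log2 fold change -1.74, SE 0.34, edgeR adjusted p = 0.0115). At day 3 the 4 samples stood at 21.1, 21.3, 37.3 and 47.8 CPM, on both sides of the healthy ones. At day 7 all 4 were above every healthy sample, at 53.1, 48.1, 42.8 and 40.5 CPM, but the rise did not pass the test (0.62, SE 0.26, edgeR adjusted p = 0.192).

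Nr1d1 shares 263 of its 3077 exonic bases with Thra, the thyroid hormone receptor alpha gene on the opposite strand, and whether counting used the strand is not given in the sources used here. Thra fell too at day 1, from 58.1, 50.3, 67.8 and 41.4 CPM in healthy LSECs to 7.83 and 14.5 CPM (log2 fold change -2.29, SE 0.46, edgeR adjusted p = 0.0121), a call lost without day 1 replicate 1 (-1.94, edgeR adjusted p = 0.294). Reads of this shared stretch cannot be assigned to either gene with certainty. No exon of Nr1d2 is shared with another gene. Both day 1 falls rest on 2 mice: without day 1 replicate 1 the adjusted p was 0.0644 for Nr1d1 and 0.145 for Nr1d2, and without replicate 2 it was 0.0578 and 0.198, so that neither call was kept. Nr1d2 also missed the threshold (-1.72, edgeR adjusted p = 0.0680) without the 3 libraries with the most hepatocyte RNA. Because the samples are bulk sorted cells, fewer cells that express a gene and less of its RNA per cell cannot be told apart.

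Cry1, which encodes a strong repressor of the activator pair, was 9.94, 18.0, 16.3 and 19.4 CPM in healthy LSECs and 47.5 and 28.9 CPM at day 1. Both day 1 samples were above all healthy ones, with a log2 fold change of 1.26 (SE 0.40, edgeR adjusted p = 0.0995). At day 3 and day 7 its samples overlapped the healthy ones, in ranges of 12.5 to 32.3 and 12.7 to 23.8 CPM. Per1, a period gene that also responds quickly to stress signals and glucocorticoids, was 20.8, 16.0, 18.6 and 13.8 CPM in healthy LSECs and 37.2 and 28.9 CPM at day 1 (0.94, SE 0.38, edgeR adjusted p = 0.215). Of the 10 clock genes, 6 had day 1 samples that did not overlap the healthy ones, beside 37.9% of all tested genes. Groups separate more easily when 1 of them has only 2 samples, and what else adds to this share was not tested.

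**Figure D1:**
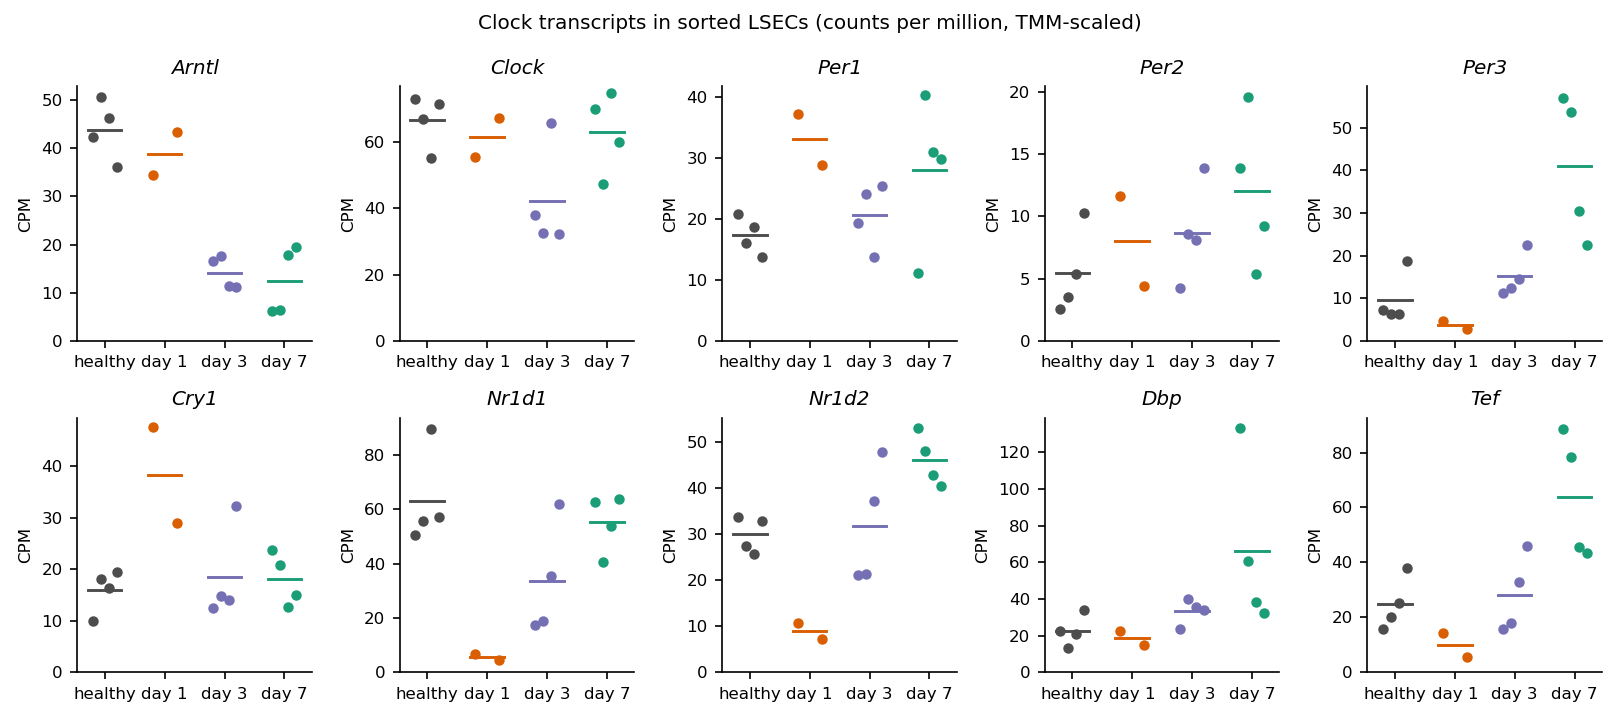
TMM-scaled CPM of the 10 clock genes, with 1 point per mouse and the group mean as a bar. The x axis gives the group and each panel has its own y axis from 0. Nr1d1 and Nr1d2 are lowest in the 2 day 1 samples, Arntl is below all healthy samples at day 3 and day 7, and Per3 is above them at day 7.

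At day 3 Arntl, which encodes the activator, fell. It was the 1 clock gene called at that day, where 7.19% of all tested genes were called, and it stayed low at day 7. Arntl was 42.4, 50.7, 46.3 and 36.1 CPM in healthy LSECs and 34.5 and 43.3 CPM at day 1, where the groups overlapped (edgeR adjusted p = 0.907). At day 3 it was 16.5, 17.7, 11.5 and 11.1 CPM, with every sample below every healthy one (log2 fold change -1.63, SE 0.36, edgeR adjusted p = 0.0164). The call at day 3 was kept when any 1 library was left out.

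At day 7 Arntl was 6.12, 6.49, 17.8 and 19.5 CPM, again without overlap (log2 fold change -1.81, SE 0.36, edgeR adjusted p = 0.0188). The 4 samples formed a low pair and a higher pair, and the low pair are the replicates with the most hepatocyte RNA at that day. Without these and healthy replicate 4, the fall was smaller and still called (-1.32, edgeR adjusted p = 0.0352). Leaving out healthy replicate 1, 2 or 3, or day 7 replicate 2, gave adjusted p values of 0.0570, 0.0585, 0.0553 and 0.0565, past the threshold. Of its 7523 exonic bases, 33 are shared with the opposite-strand gene model Gm45355.

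Clock, the partner of Arntl, did not pass the test at any day. It was 73.0, 67.0, 55.1 and 71.5 CPM in healthy LSECs and 55.6 and 67.2 CPM in the day 1 samples. The day 3 samples had 38.0, 32.5, 65.8 and 32.2 CPM, and those of day 7 had 70.1, 47.4, 74.8 and 60.1 CPM. At day 3, 3 of the 4 samples lay below all healthy ones and the fourth among them (log2 fold change -0.66, SE 0.24, edgeR adjusted p = 0.112).

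By day 7 Per3, Tef, Dbp, Per2 and Nr1d2 had their highest group means. Per3 rose and Arntl fell, the 2 clock genes called of 10, beside 3.18% of all tested genes. Tef, Dbp, Per2 and Nr1d2 did not pass the test. At day 7, 4 of the 10 genes had samples that did not overlap the healthy ones, beside 20.8% of all tested genes, while at day 3 only Arntl did, beside 14.4%.

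Per3, a period gene that is not required for the rhythm itself, was 7.21, 6.30, 6.24 and 18.7 CPM in healthy LSECs. It was 4.56 and 2.80 CPM at day 1, below all healthy samples (log2 fold change -1.39, SE 0.54, edgeR adjusted p = 0.184). It was 11.3, 12.3, 14.6 and 22.5 CPM at day 3, above 3 of the 4 healthy samples. At day 7 it reached 57.1, 53.8, 30.6 and 22.4 CPM, above all healthy samples (2.09, SE 0.42, edgeR adjusted p = 0.0204), a 4.26-fold rise.

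The highest healthy value of Per3 was that of replicate 4, and the highest day 7 values were those of replicates 1 and 2, the 3 libraries with the highest hepatocyte marker sums. Without these 3 libraries Per3 was still called at day 7 (log2 fold change 2.01, edgeR adjusted p = 0.0308). Without healthy replicate 1, 2 or 3, or day 7 replicate 2, the adjusted p was 0.0769, 0.0721, 0.0735 and 0.0700.

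Tef encodes a D-box activator. It was 15.9, 20.2, 25.4 and 38.1 CPM in healthy LSECs and 14.2 and 5.77 CPM in the day 1 samples. The day 3 samples had 15.9, 18.0, 32.9 and 45.9 CPM, and those of day 7 had 88.6, 78.2, 45.6 and 43.3 CPM. All day 7 samples were above all healthy ones, with a log2 fold change of 1.36 (SE 0.41, edgeR adjusted p = 0.0869). Both day 1 samples were below all healthy ones (-1.32, SE 0.53, edgeR adjusted p = 0.203). The fold change was -2.16 without day 1 replicate 1 and -0.85 without replicate 2. Of its 7867 exonic bases, 193 are shared with the gene model Gm17597.

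Dbp, the strongest output gene of the clock in liver, was 22.4, 13.2, 20.8 and 34.0 CPM in healthy LSECs and 22.7 and 14.9 CPM at day 1, where the groups overlapped. It was 23.7, 40.2, 35.9 and 34.3 CPM at day 3 and 133, 60.7, 38.3 and 32.4 CPM at day 7. The lowest day 7 sample lay below the highest healthy one (log2 fold change 1.55, SE 0.41, edgeR adjusted p = 0.0600). Without healthy replicate 4 Dbp was called at day 7 (1.86, edgeR adjusted p = 0.0423), while without the 3 libraries richest in hepatocyte RNA it was not (0.91, edgeR adjusted p = 0.193). Dbp shares 539 of its 2993 exonic bases with Sphk2 on the opposite strand, which was not called in any comparison with healthy LSECs.

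Per2, the period gene most needed for a stable rhythm, was 2.60, 3.49, 5.35 and 10.3 CPM in healthy LSECs. Its samples overlapped the healthy ones at every day, with ranges of 4.44 to 11.6 CPM (day 1), 4.27 to 13.9 CPM (day 3) and 5.40 to 19.6 CPM (day 7), and its largest log2 fold change was 1.15 (SE 0.52, edgeR adjusted p = 0.224), at day 7. Per1 spanned 13.8 to 25.4 CPM at day 3 and 11.1 to 40.3 CPM at day 7, overlapping the healthy samples at both. Healthy replicate 4 and day 7 replicates 1 and 2 had the most hepatocyte RNA of their groups and the highest Per2, Per3, Tef and Dbp. Within day 7 only Per2 followed the order of the hepatocyte markers over all samples. Healthy replicate 4 had more of these markers than any day 7 sample, and less of each of these genes than day 7 replicates 1 and 2. The part of hepatocyte RNA in the day 7 levels beyond the values given was not tested.

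**Figure D2:**
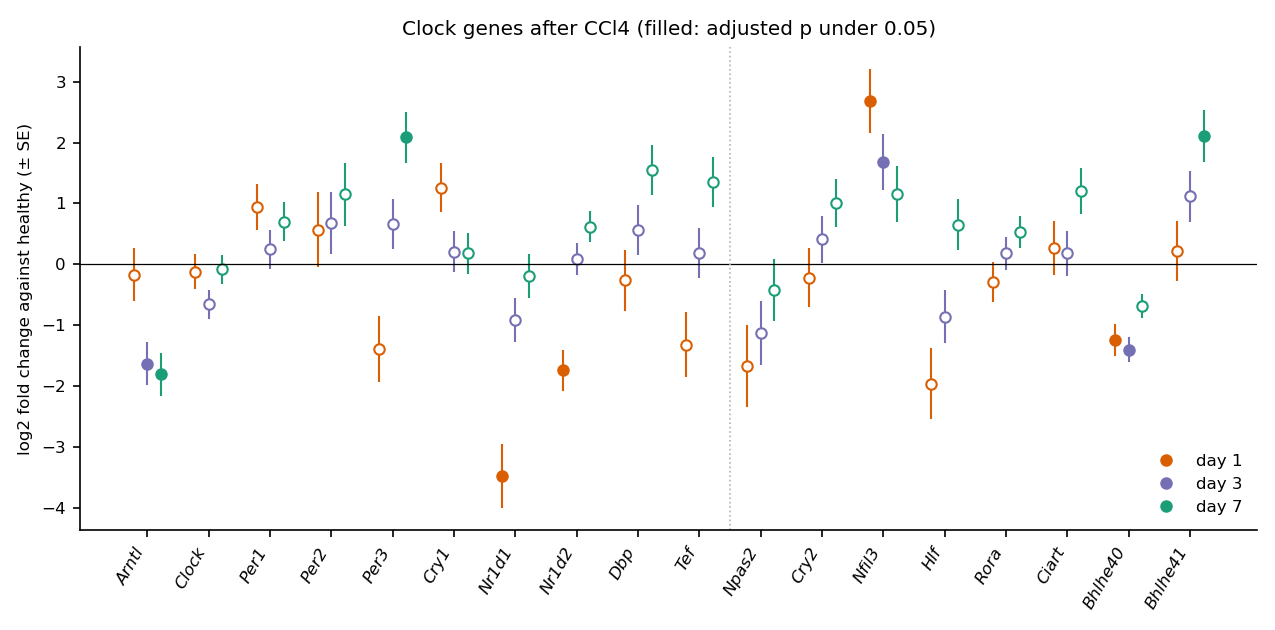
Log2 fold changes against healthy LSECs at day 1, day 3 and day 7, with SE bars, for the 10 clock genes (left of the dotted line) and 8 other genes of the clock (right). Filled circles have an adjusted p under 0.05. Left of the line, Nr1d1 and Nr1d2 are filled at day 1, Arntl at day 3 and day 7, and Per3 at day 7. Right of it, Nfil3 and Bhlhe40 are filled at day 1 and day 3, and Bhlhe41 at day 7.

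The course of the genes was also compared between the injured groups, which all received CCl4 in oil. They differ in day, in markers of other cells (stellate cell markers summed to 119 and 100.1 CPM at day 1 and to 374 to 5732 CPM at day 7), and possibly in the hour of harvest. From day 1 to day 3 Nr1d1 rose (log2 fold change 2.56, SE 0.50, edgeR adjusted p = 0.0183) and so did Nr1d2 (1.83, SE 0.35, edgeR adjusted p = 0.0156), 2 of the 10 genes beside 2.54% of all tested genes. From day 1 to day 7, 5 of the 10 were called, beside 8.04% of all tested genes. Per3 (3.48, SE 0.61, edgeR adjusted p = 0.00473), Nr1d1 (3.29, SE 0.52, edgeR adjusted p = 0.00285), Tef (2.68, SE 0.57, edgeR adjusted p = 0.0141) and Nr1d2 (2.36, SE 0.36, edgeR adjusted p = 0.00223) rose. Arntl fell (-1.64, SE 0.41, edgeR adjusted p = 0.0285). The samples of day 1 and day 7 did not overlap for 7 of the 10 genes, these 5 among them. The share over all tested genes was not computed here, so this adds nothing to the calls.

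Between day 3 and day 7 edgeR called 0 of the 10 genes, beside 1.77% of all tested genes, and 4 had an unadjusted p under 0.05. DESeq2 called 1, beside 6.7% of all genes, and limma voom with sample quality weights called 5, beside 22.5%. All calls against day 1 depend on both of its mice, since 0 of the 10 genes were called against day 3 or day 7 when either day 1 sample was left out. In those fits edgeR called 0.166% and 0.227% of all genes for day 3 against day 1 and 0.494% and 1.16% for day 7 against day 1, and the folds stayed near their size (Nr1d1 2.82 and 2.28, and 3.63 and 3.09). Tef moved more, to 3.53 without day 1 replicate 1 and 2.22 without replicate 2. The comparisons share samples with those against healthy LSECs and are not independent of them.

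The levels of the genes within each mouse were also described relative to Arntl, as the log2 CPM of a gene minus that of Arntl. All 4 differences share the Arntl term, so the fall of Arntl at day 3 and day 7 raises each of them and they are not separate evidence of it. Gene length does not change between samples, so differences between mice can be read, but not the sign of a single value. Dbp minus Arntl was -0.92, -1.94, -1.16 and -0.09 in healthy LSECs and -0.60 and -1.54 at day 1, which lay inside the healthy range. It was 0.52, 1.18, 1.64 and 1.63 at day 3 and 4.43, 3.22, 1.10 and 0.73 at day 7. All 8 samples of day 3 and day 7 were thus above all 6 samples of healthy LSECs and day 1.

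Nr1d1 minus Arntl separated day 1 as well. It was 0.25, 0.13, 0.95 and 0.66 in healthy LSECs and -2.36 and -3.22 in the day 1 samples. It then took values of 0.07, 0.10, 1.62 and 2.48 for day 3, and of 3.35, 2.64, 1.60 and 1.71 for day 7. The day 1 samples lay below every other sample, and the day 7 samples lay above every healthy one, although Nr1d1 itself overlapped the healthy samples at day 7. Within day 3, replicates 1 and 2 stood at or just below the healthy range and replicates 3 and 4 above it. Per3 minus Arntl had group means of -2.35 ± 0.95 (SD over 4 healthy mice), -3.42 ± 0.73 (the 2 mice of day 1), 0.07 ± 0.75 (the 4 of day 3) and 1.81 ± 1.55 (the 4 of day 7), and Tef minus Arntl of -0.88 ± 0.68, -2.09 ± 1.15, 0.88 ± 1.06 and 2.48 ± 1.43.

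Mice of the same day also differed from each other in these values. The SD of Dbp minus Arntl was 1.76 among the 4 day 7 mice and 0.76 among the 4 healthy mice. Whether mice of a group were killed at the same hour was not tested, since no hour is given.

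**Figure D3:**
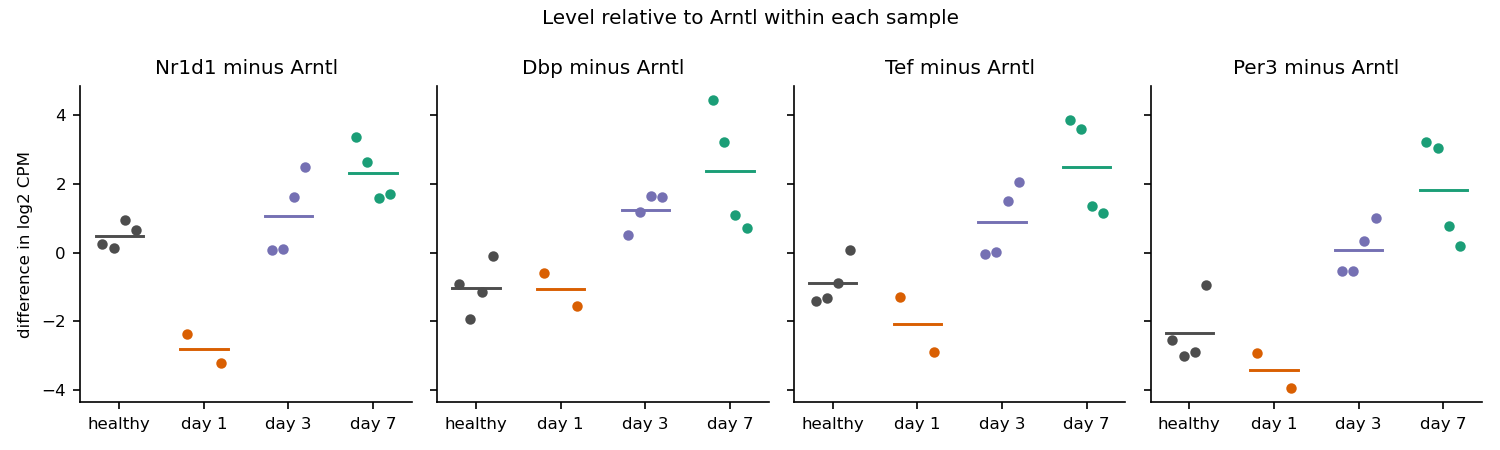
Log2 CPM of Nr1d1, Dbp, Tef and Per3 minus that of Arntl in the same sample, with 1 point per mouse and the group mean as a bar. Dbp minus Arntl is 0.52 or higher in all day 3 and day 7 samples and -0.09 or lower in all healthy and day 1 samples, and Nr1d1 minus Arntl is -2.36 and -3.22 at day 1.

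Among 17 other genes of the clock and its regulators, all of which were tested, day 1 and day 3 called 2 each and day 7 called 1, beside 4.06%, 7.19% and 3.18% of all tested genes. The median log2 fold change of these 17 was -0.22, -0.23 and -0.19 at the 3 days, beside -0.03, 0.18 and 0.02 for all tested genes. Nfil3, the D-box repressor, is itself repressed by REV-ERB proteins. It was 7.80, 12.7, 9.67 and 11.4 CPM in healthy LSECs and 84.8 and 48.8 CPM at day 1 (log2 fold change 2.68, SE 0.53, edgeR adjusted p = 0.0117). Its group mean was highest at day 1, where those of Nr1d1 and Nr1d2 were lowest. Arntl, which REV-ERB proteins also repress, was 34.5 and 43.3 CPM at day 1 and 36.1 to 50.7 CPM in healthy LSECs. Whether the levels of Nr1d1 and Nr1d2 had a part in that of Nfil3 was not tested.

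At day 3 Nfil3 was 68.0, 40.3, 13.3 and 11.8 CPM (1.68, SE 0.46, edgeR adjusted p = 0.0432) and at day 7 it was 20.6, 23.8, 22.3 and 26.0 CPM, above all healthy samples without passing the test (1.16, SE 0.46, edgeR adjusted p = 0.170). The 2 high samples of day 3 are replicates 1 and 2, those with the most monocyte and neutrophil RNA, and without them the day 3 value was 0.23 (edgeR adjusted p = 0.600). The day 3 call was lost in 12 of the 14 fits that leave out 1 library (adjusted p up to 0.153, without day 3 replicate 1, where the value was 0.95). The day 1 rise was 2.65 (edgeR adjusted p = 0.000206) without the same 2 libraries, but missed the threshold without day 1 replicate 1 (2.19, edgeR adjusted p = 0.206) and without the 3 libraries richest in hepatocyte RNA (2.70, edgeR adjusted p = 0.0514). Nfil3 is also induced by cytokines, and the promoter window of Nfil3 holds 1 ROR element.

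Bhlhe40 (DEC1), an E-box repressor, fell at day 1 and day 3. It was 394, 514, 461 and 283 CPM in healthy LSECs, 189 and 162 at day 1 (log2 fold change -1.24, SE 0.26, edgeR adjusted p = 0.0155) and 149.6, 144, 145 and 186 CPM at day 3 (-1.40, SE 0.20, edgeR adjusted p = 0.00229). All these samples were below all healthy ones. The day 1 call was lost without either day 1 sample (-1.38 and -1.15, edgeR adjusted p = 0.190 and 0.172), while the day 3 call held under all 24 alternatives. Its paralog Bhlhe41 (DEC2) was far lower, at 0.595 to 1.03 CPM in healthy LSECs, and rose to 1.58, 5.29, 5.53 and 2.84 CPM at day 7 (2.11, SE 0.43, edgeR adjusted p = 0.0201). That call was lost without healthy replicate 1, 2 or 3 (edgeR adjusted p = 0.0694, 0.0616 and 0.0591), without day 7 replicate 2 or 3 (0.0741 and 0.0557), and without the 3 libraries richest in hepatocyte RNA (2.10, edgeR adjusted p = 0.0601).

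Hlf, the D-box activator related to Dbp and Tef, was 1.82, 1.25, 2.45 and 5.08 CPM in healthy LSECs and 0.789 and 0.572 CPM in the day 1 samples. The day 3 samples had 1.33, 0.936, 1.77 and 1.78 CPM, and those of day 7 had 4.34, 5.90, 2.60 and 3.72 CPM. It was not called against healthy LSECs and rose from day 1 to day 7 (log2 fold change 2.60, SE 0.60, edgeR adjusted p = 0.0195), a call lost without either day 1 sample (adjusted p = 0.213 and 0.217). Npas2, which can take the place of Clock, was 0.729, 0.858, 0.707 and 1.08 CPM in healthy LSECs and 0.251 and 0.275 CPM at day 1 (-1.67, SE 0.68, edgeR adjusted p = 0.213). Cry2, the second cryptochrome, ranged from 4.21 to 10.5 CPM in healthy LSECs and from 9.72 to 19.9 CPM at day 7 (1.01, SE 0.39, edgeR adjusted p = 0.158).

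Rora, whose product opposes the REV-ERB proteins at ROR elements, was not called at any day. It ranged from 17.8 to 33.0 CPM in healthy LSECs and from 29.1 to 41.0 CPM at day 7 (0.53, SE 0.27, edgeR adjusted p = 0.276). Ciart, an E-box gene that encodes a further repressor, was 2.46 to 3.71 CPM in healthy LSECs and 12.7, 7.03, 3.90 and 3.93 CPM at day 7 (1.20, SE 0.38, edgeR adjusted p = 0.0958). The highest sample of Ciart was also the highest of Dbp and Per3.

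**Figure D4:**
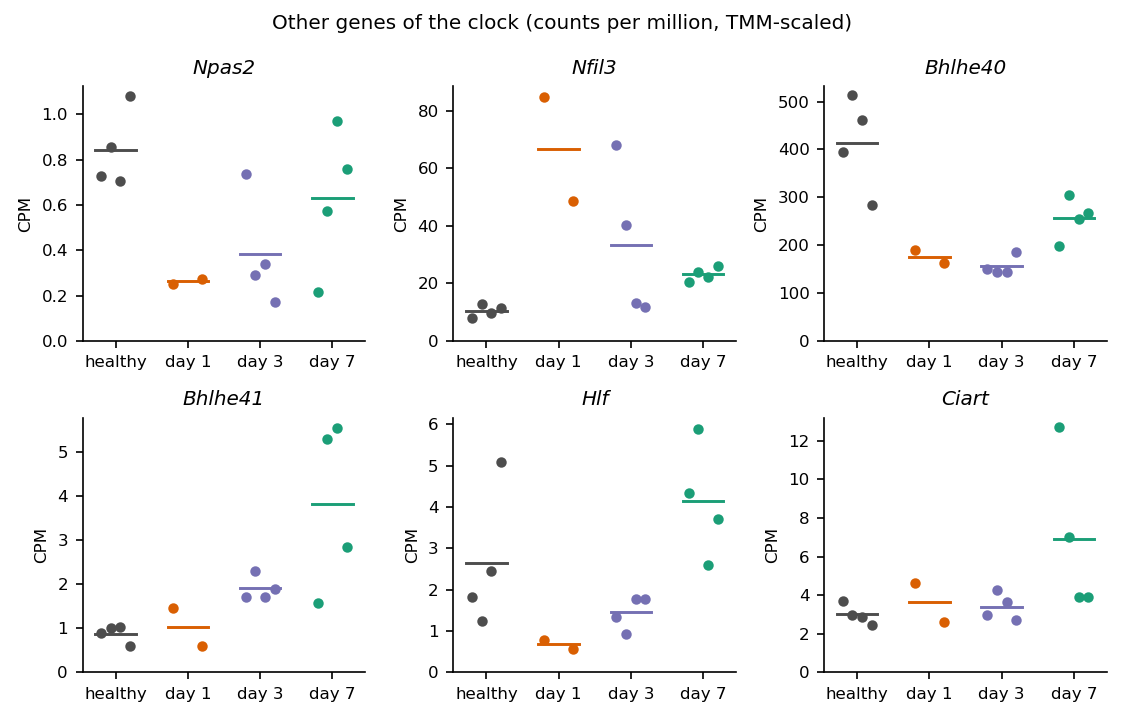
TMM-scaled CPM of 6 other genes of the clock, with 1 point per mouse and the group mean as a bar. The x axis gives the group and each panel has its own y axis from 0. Nfil3 is 84.8 and 48.8 CPM at day 1 and splits into 2 high and 2 low samples at day 3, and Bhlhe40 is below all healthy samples at day 1 and day 3.

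Of 6 genes known as direct clock outputs in many tissues (Usp2, Tsc22d3, Tspan4, Wee1, Nampt and Lonrf3), day 1 and day 7 called 1 each and day 3 called 2, all of them higher, beside 4.06%, 7.19% and 3.18% of all tested genes in the order of the days. Of those calls over all genes 59.6%, 64.2% and 68.8% were higher. Lonrf3, a RING finger gene, was 0.504 to 0.978 CPM in healthy LSECs and rose at day 1 (log2 fold change 1.94), day 3 (2.75) and day 7 (2.16, edgeR adjusted p = 0.0248, 0.00239 and 0.0131). Wee1, a kinase that delays mitosis, was 5.92 to 7.91 CPM in healthy LSECs and 11.0, 7.28, 25.9 and 29.3 CPM at day 3, which overlapped (1.44, SE 0.40, edgeR adjusted p = 0.0450). The Wee1 call was lost in 18 of 24 alternatives, among them library size only (adjusted p = 0.0584), no filter (0.0962) and 12 of the 14 fits that leave out 1 library (up to 0.154). The day 1 call of Lonrf3 was lost without either day 1 sample or without healthy replicate 2, 3 or 4 (edgeR adjusted p = 0.0663, 0.0536 and 0.0873). Its day 7 call was lost without healthy replicate 2 (0.0511). Without the 3 libraries richest in hepatocyte RNA both calls were lost, that of day 7 at an edgeR adjusted p of 0.132. The day 3 call of Lonrf3 held under all 24 alternatives. The other 4 of this list were not called, and the median of all 6 was 0.27, 0.27 and 0.23 at the 3 days.

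Per1 and Per2 also respond to stress kinases and to glucocorticoids, so genes of both kinds were examined. Of 8 immediate early genes, Atf3 fell at day 1 (log2 fold change -1.77, SE 0.34, edgeR adjusted p = 0.0101). Fos (-0.90, SE 0.20, edgeR adjusted p = 0.0164) and Dusp1 (-1.11, SE 0.18, edgeR adjusted p = 0.00391) fell at day 3, and Dusp1 also at day 7 (-0.97, SE 0.18, edgeR adjusted p = 0.0136). These were 1, 2 and 1 calls of 8 at the 3 days, beside 4.06%, 7.19% and 3.18% of all tested genes, and no gene of this list was called higher. The median log2 fold change of the 8 was -0.70, -0.72 and -0.66 at the 3 days, beside -0.03, 0.18 and 0.02 for all tested genes. The Atf3 call was lost without day 1 replicate 1, and the Fos call without day 3 replicate 2 (edgeR adjusted p = 0.0502). The day 7 call of Dusp1 was lost without day 7 replicate 2, 3 or 4 (edgeR adjusted p up to 0.0658). It was also lost without the 3 libraries richest in hepatocyte RNA (0.0805).

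Of 6 glucocorticoid-responsive genes, day 1 and day 7 called 1 each and day 3 called 2, beside the same shares of all tested genes, and their median log2 fold change was 0.90, -0.27 and -0.29 at the 3 days. Mt2, a metallothionein that also answers to metals and inflammation, was 85.7, 52.2, 36.9 and 25.8 CPM in healthy LSECs and 875 and 445 CPM at day 1 (log2 fold change 3.72, SE 0.61, edgeR adjusted p = 0.00416). Fkbp5 and Zbtb16 were above all healthy samples in both day 1 samples, at 97.9 and 80.6 CPM and at 14.7 and 6.99 CPM, without passing the test (edgeR adjusted p = 0.136 and 0.0613). Klf9 was also above all healthy samples (88.5 to 142 CPM) in both day 1 samples, at 190.5 and 146 CPM (0.54, SE 0.21, edgeR adjusted p = 0.197). Tsc22d3 was below all healthy samples (166 to 224 CPM) in both, at 120.3 and 135 CPM (-0.67, SE 0.39, edgeR adjusted p = 0.418), and Sgk1 was near its healthy level at day 1 (-0.10, SE 0.27, edgeR adjusted p = 0.921). Sgk1, a kinase, fell at day 3 (-1.50, SE 0.22, edgeR adjusted p = 0.00271) and day 7 (-1.20, SE 0.22, edgeR adjusted p = 0.0138), and Klf9, a transcription factor, at day 3 (-1.09, SE 0.18, edgeR adjusted p = 0.00436). The Mt2 call was lost without day 1 replicate 1. The day 7 call of Sgk1 was lost without healthy replicate 1 or any of day 7 replicates 2, 3 and 4 (edgeR adjusted p up to 0.0688). It was also lost without the 3 libraries richest in hepatocyte RNA (0.0722). The day 3 calls of Sgk1 and Klf9 held under all 24 alternatives.

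The genes whose pattern over the 14 samples was most like that of Dbp and of Arntl were taken by Pearson's r of log2 CPM among all tested genes, as a description of samples that share their groups and their admixed cells. For Dbp they were Per3 (r = 0.877), D230022J07Rik (0.876), Gm13378 (0.875), Gm12743 (0.844) and Atad2b (0.842). Per3 ranked first by a narrow margin over D230022J07Rik and Gm13378, which are not in the clock lists used here. Tef ranked 19th for Dbp (r = 0.804). The other clock genes were further down: Per2 at rank 248 (0.703), Nr1d2 at 738 (0.635) and Nr1d1 at 4712 (0.340). Cry1 was at rank 11753 (0.025), Clock at 14072 (-0.059) and Per1 at 17571 (-0.183). Arntl had an r of -0.858 with Dbp. For Arntl the nearest were Eif1 (r = 0.933), Jmjd6 (0.905), Mesd (0.888), Hotairm1 (0.887) and Mtf1 (0.885), none of which belongs to the clock lists used here.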

How the data were processed

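RNA of FACS-sorted LSECs was sequenced after SMARTseq v4 amplification from 14 mice in 4 groups, taken from the sample labels. The authors used FastQC and AfterQC for read quality, STAR for mapping to GRCm38 and StringTie for assembly (STAR and StringTie also appear in the submitters' processing notes), and deposited whole-number counts per Ensembl gene without normalization. Tool versions, the annotation release, the use of strand and the step to whole numbers are not given in the sources used here, so counts of genes that share exons with another gene are uncertain. The sort in the methods also removed CD45+ cells, which the labels do not list. The paper's results section states that samples of day 1 with low RNA quality were left out. The methods give a slightly older age range than the labels.

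Gene names, positions and exon lengths came from GENCODE vM21, which held 54495 of the 54524 genes. The filter was filterByExpr with the group as design, at least 10 counts and 15 counts in total, and 26626 genes passed. They were tested with edgeR 4.0.16 (R 4.3.3) as a quasi-likelihood model of 4 group means with TMM scaling over all 14 samples. The SE was taken from the F statistic, as the size of the log2 fold change over its root. CPM per kb used the union of exons, and log2 CPM a prior count of 2. Libraries carry no molecular identifiers, so counting error is not the error between mice. The step was tested on simulated counts. The replicate numbers were checked for pairing and did not pair the mice: over 18 pairs with the same number, the correlation of deviations from the group means was -0.232 to 0.0962. Other settings were RLE scaling, scaling by library size alone, 2 other filters, DESeq2 1.42.0, voom with quality weights in limma 3.58.1, models of only the 2 groups compared, the replicate number as a block, and each library left out.

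1 gene of the list of other clock genes is not reported here and was left out of its counts. The 10 genes and all lists were chosen with earlier results of these data known. From the lists, every gene called against healthy LSECs was named, with Npas2, Cry2, Nfil3, Hlf, Rora and Ciart, and the 5 genes nearest in pattern to Dbp and to Arntl. Thra, Sphk2, Fkbp5, Zbtb16 and Tsc22d3 are given in places outside this rule, chosen after their values were seen.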

Additional observations from a re-analysis of the deposited data

Results flagged for a closer look

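Among 30 groups of 4 samples (10 clock genes in healthy, day 3 and day 7 LSECs), 1 sample stood apart beyond Dixon's 95% limit, where chance alone flags about 1 in 20 groups. Per3 was 4.23 log2 CPM in healthy replicate 4, while the other 3 healthy samples lay between 2.65 and 2.85, a gap of 0.869 of the whole range. The same library had the highest summed hepatocyte markers of all 14 (6866 CPM).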

How the results depend on the processing

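The direction of every fold change followed here (18, of the clock genes called in any comparison or whose samples did not overlap the healthy ones) was the same under all 24 alternatives, and RLE size factors, library size only, no filter and a filter of 10 counts in every sample gave counts of called clock genes within 1.5 times of those reported. The numbers called of 10 were 2, 1 and 2 at day 1, day 3 and day 7 against healthy LSECs, and 2, 5 and 0 for day 3 against day 1, day 7 against day 1 and day 7 against day 3. DESeq2 gave 2 at day 3, 4 at day 7, 5 for day 3 against day 1 and 1 for day 7 against day 3, while calling more of all genes too (10.7%, 14.2% and 10.2% at the 3 days, 9.04% for day 3 against day 1 and 6.7% for day 7 against day 3). limma voom gave 5, 3 and 6 at the 3 days, 6 for day 3 against day 1 and 5 for day 7 against day 3, beside 16.2%, 27.3%, 26.5%, 12.6% and 22.5% of all genes. Models of only the 2 groups compared gave 4 at day 7 and 0 for day 3 against day 1, beside 14.6% and 0.762% of all genes. The replicate number as a block gave 1 for day 3 against day 1, where Nr1d2 was lost (adjusted p = 0.0573), and for day 7 against day 1 it lost Arntl (adjusted p = 0.0775). It left the other counts within 1.5 times.

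With 1 library left out, the number called ranged from 0 to 3 at day 1, from 1 to 2 at day 3, from 0 to 3 at day 7, from 0 to 3 for day 3 against day 1, from 0 to 6 for day 7 against day 1 and from 0 to 2 for day 7 against day 3. It was 0 in the comparisons with day 1 without either of its samples, where the lone sample is assumed to vary like the other groups, and 0 at day 7 without healthy replicate 1, 2 or 3 or day 7 replicate 2. The share of all genes called at day 7 fell from 3.18% to between 0.726% and 0.995% in these 4 fits. The cause was not tested.

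Chosen after seeing the data, leaving out the 3 libraries with the most hepatocyte markers gave 1 at day 1, 4 for day 3 against day 1 and 3 for day 7 against day 1, and leaving out the 2 day 3 libraries with the most genes detected gave 4 at day 7. Library size only in place of TMM moved the median of all genes by at most 0.12 (log2), from 0.03 to 0.15 for day 7 against day 1, and the share of all calls that were higher from 64.2% to 75.1% at day 3, from 68.8% to 86.8% at day 7 and from 45.3% to 56% for day 7 against day 1. Day 1 has 2 samples and no hour of harvest is given.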
